A study of Mus musculus with 2 samples.

Results

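The Iroquois genes lie in a pair of clusters of 3 genes each, Irx1-Irx2-Irx4 on chromosome 13 and Irx3-Irx5-Irx6 on chromosome 8. Their open chromatin was described here in DNase-seq libraries of newborn mouse midbrain. DNase-seq cuts nuclei with the nuclease DNase I, which reaches DNA that bound regulatory proteins keep accessible, and the sequenced fragment ends locate those sites. The study has a single group of 2 biological replicates: midbrain tissue of healthy newborn mice (day 0) of the strain B6NCrl, males and females pooled, with no treatment and no altered gene named. Both replicates trace to the same donor entry, nothing in the labels says that they came from different animals, and a difference between them may be technical.

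The members are the peaks, and the wider intervals called hotspots, that lay between the first and the last gene of each cluster in the GENCODE M21 annotation of mm10 or within 100 kb on either side. The peaks within 500 bp of a transcription start site (TSS) of the 6 Irx genes were taken as their promoter peaks. These rules gave 290 of the 228203 peaks of replicate 1 and 132 of the 122593 peaks of replicate 2. Overlapping peaks of both libraries were merged, and a merged region counted as replicated if both libraries had a peak in it. Of 74833 replicated regions of the genome, 59 lay in the clusters, 46 of them distal (over 500 bp from any TSS) and 13 at promoters. Peaks measure 150 bp and come with the authors' signal, a whole number that the files do not define. The signals were not scaled between the libraries (median 44 in replicate 1 and 18 in replicate 2), so each is given beside the percentage of its own library's peaks that had a lower one. Read depth is unknown, and peaks per list were the only measure of yield.

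Iroquois proteins are homeodomain transcription factors of the TALE class, in which 3 extra amino acids lengthen a loop of the DNA-binding domain. They divide the early neural plate and other embryonic fields into territories, and some are used again in later neurons, in the retina and in the heart. The clusters arose by duplication, so the genes form paralog pairs across them: Irx1 with Irx3, Irx2 with Irx5, and Irx4 with Irx6. Irx4 is best known as a gene of the heart ventricle, and Irx3 and Irx5 are known for enhancers that lie far away in neighbouring genes.

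By the 500 bp rule, promoter peaks fell by paralog pair. Irx1, Irx2, Irx3 and Irx5 had a promoter peak in both libraries, and both members of the third pair, Irx4 and Irx6, had none in either library. Irx6 was a near case, because a replicate 1 hotspot reached its promoter window. The tissue was not sorted, so a site open in few cells and a site weakly open in many cannot be told apart. The bases before the RefSeq start are shown for Irx2 and Irx4, an open and a closed promoter of the same cluster, because these sequences look alike in composition. Of the 6 Irx genes, 3 were found in the RefSeq promoter table (GRCm38.p6), and the third of these, Irx3, starts there inside the GENCODE transcript and is not shown. Capitals mark matches to the SP/KLF word GGGCGG, the E-box CAGATG and the NFI half-site TTGGCA, on either strand.
Irx2, chr13:72628570-72628819, plus strand, peak in both libraries: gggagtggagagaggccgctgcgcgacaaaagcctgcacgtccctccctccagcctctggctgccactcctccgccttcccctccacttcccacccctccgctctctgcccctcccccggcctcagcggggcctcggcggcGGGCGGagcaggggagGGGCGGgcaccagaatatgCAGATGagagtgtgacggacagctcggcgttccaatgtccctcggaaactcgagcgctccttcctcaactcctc
Irx4, chr13:73260247-73260496, plus strand, no peak: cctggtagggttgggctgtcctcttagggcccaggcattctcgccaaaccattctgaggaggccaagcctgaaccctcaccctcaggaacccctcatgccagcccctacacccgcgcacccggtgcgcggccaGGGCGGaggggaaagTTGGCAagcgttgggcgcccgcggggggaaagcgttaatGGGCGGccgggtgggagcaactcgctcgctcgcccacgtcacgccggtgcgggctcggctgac

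Over the RefSeq window of 300 bases, from 250 before the start to 50 after it, the Irx2 promoter was 69.0% G or C with 25 CpG dinucleotides, and the Irx4 promoter was 70.7% G or C with 31. Each held GGGCGG on 2 occasions, a word found in 35.2% of the 27025 promoters in the table. The 150 bp peaks of both libraries lay entirely within the Irx2 window, and 0 bp of the Irx4 window were covered. Closed Irx4 was thus the richer of these windows in CpG. Within 500 bp of the 5′ end the order was the reverse. The ratio of observed to expected CpG there was 0.917 for Irx2 and 0.810 for Irx4.

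**Figure D1:**
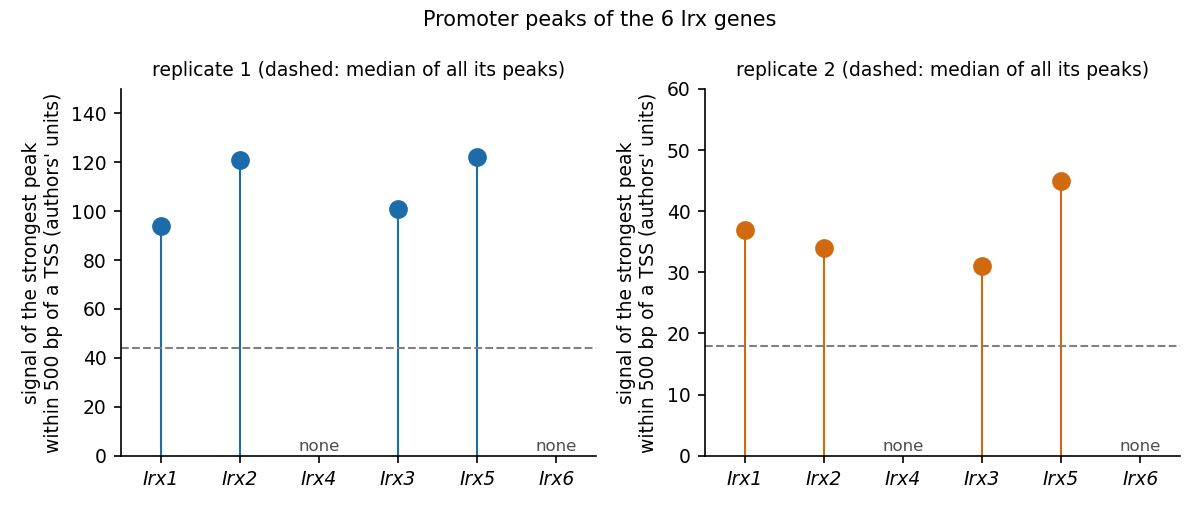
Signal of the strongest peak within 500 bp of a TSS of each Irx gene (vertical axis, authors' units) in replicate 1 (left panel) and replicate 2 (right panel), with the median of all peaks of that library as a dashed line. Irx1, Irx2, Irx3 and Irx5 stand above the median in both libraries, and Irx4 and Irx6 have no peak in either.

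Irx1 had 1 promoter peak shared by the libraries, with a signal of 94 in replicate 1 (90.6% of that library's peaks lower) and 37 in replicate 2 (82.7% lower). Irx2 had its shared peak 129 bp before the TSS in replicate 1, at 121 (97.0% lower), and 109 bp before it in replicate 2, at 34 (79.9% lower). The same region lies within 500 bp of the start of Gm20554, a long noncoding RNA gene on the other strand. Irx5, the paralog of Irx2, reached 122 in replicate 1 (97.1% lower) and 45 in replicate 2 (88.4% lower). Irx3 had a pair of shared peaks: one over the GENCODE start with 101 and 31 in replicates 1 and 2, and one farther into the gene with 95 and 28. The first also lies within 500 bp of a start of Irx3os, the antisense transcript. All 4 genes stood above the median peak in both libraries, with Irx5 first in each, by a single unit over Irx2 in replicate 1. The libraries ordered the others differently: Irx2, Irx3, Irx1 in replicate 1 and Irx1, Irx2, Irx3 in replicate 2.

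The 4 of 6 must be read against the genome, where 61% of 21938 protein-coding genes had a replicated promoter peak. The share is near that background and is no result by itself. The pair without a promoter peak can be set against promoters with a like CpG ratio. Genes were divided into 10 classes by the ratio of observed to expected CpG dinucleotides within 500 bp of the 5′ end, class 10 having the highest. Irx4 fell in class 9, where 95.8% of genes had a replicated promoter peak. Irx6 fell in class 6, with 84.5%, which is also the class of Irx3. Irx1 and Irx2 were in class 10 (96.5%) and Irx5 in class 8 (93.3%).

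Around Irx4 the chromatin was without a promoter hotspot in either library. Its nearest peaks to a TSS were at 3834 bp in replicate 1, with a signal of 38 (37.7% lower), and at 11674 bp in replicate 2, with 19 (52.4% lower). Its gene body held 3 peaks of replicate 1, between 36 and 38, and 0 of replicate 2. Irx6 differed from Irx4 in being nearer to the threshold. A replicate 1 peak with a signal of 72 (79.2% lower) had its centre 577 bp from the TSS, just outside the 500 bp window, and a replicate 1 hotspot in the authors' strongest class reached into the window. Replicate 2 had its nearest peak 3877 bp away, with 26 (69.55% lower), at a region that replicate 1 also called, with 30. The Irx6 body held 0 peaks of either library.

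As a frame for these levels, other TALE homeobox genes include the Meis, Pknox and Tgif families. They had a replicated promoter peak in 11 of the 11 cases reported here, beside 61% of all protein-coding genes. All but Pbx2 (class 3, 22%) fell in CpG classes 5 to 10, where 69.3% to 96.5% of genes had one. Their strongest promoter peaks ran from 78 to 136 in replicate 1 and from 28 to 79 in replicate 2. Meis2, a gene of the midbrain roof, had 106 and 28, and Pknox1 had 136 and 79. The open Irx promoters, at 94 to 122 and 31 to 45, lay inside these ranges. By strength in both libraries and by replicated regions within 50 kb, Irx1 was most like Hps3, Irx2 like Lhx1, Irx3 like Plagl1 and Irx5 like Lrguk. These likenesses rest on 2 libraries. Within a distance of 5 percentile units lay 50 genes for Irx1, 46 for Irx3 and 20 for Irx5, but 4 for Irx2.

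The libraries also differed over the gene bodies. In replicate 2 the 5.80 kb body of Irx1 held 12 peaks, with signals of 17 to 26 (median 22.5), and none overlapped a replicate 1 peak. Replicate 1 had 0 peaks there. Some of the 12 were also promoter peaks by the 500 bp rule, because Irx1 has 3 annotated TSSs. Replicate 2 had 5 such peaks, the shared one included. The row went on past the end of the gene, so that 25 peaks of replicate 2 and 4 of replicate 1 lay within 20 kb of its 5′ end. A replicate 2 hotspot of 2653 bp in the strongest class, chr13:71957548-71960200, was the widest of that library in the cluster. Among all 21938 protein-coding genes, 3 had at least 12 replicate 2 peaks in the body and no replicate 1 peak: Irx1, Chil3 and Nlrp9b. Chil3 and Nlrp9b are longer, at 20.01 and 81.8 kb. Irx1 had 2.07 replicate 2 peaks per kb, and 5 genes had at least as many peaks and at least as many per kb. Besides Irx1 these were A930004D18Rik, Gpr85, Shox2 and Skida1, which also had replicate 1 peaks in the body.

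Irx5 showed the reverse. Its 18.7 kb body held 20 peaks of replicate 1, with signals of 23 to 122 (median 41.5), against 3 of replicate 2, with 30 to 45. Of the 20, 2 overlapped a peak of the other library: the promoter peak and an intronic one. The hotspot over the promoter was 1335 bp wide in replicate 1 and 311 bp in replicate 2. At 1.07 replicate 1 peaks per kb, Irx5 was the 1 gene of 21938 with at least as many replicate 1 peaks in its body and at least as many per kb. The bounds of these counts of genes were set from the Irx genes themselves after their values were seen. The counts describe how rare the rows are and test nothing.

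**Figure D2:**
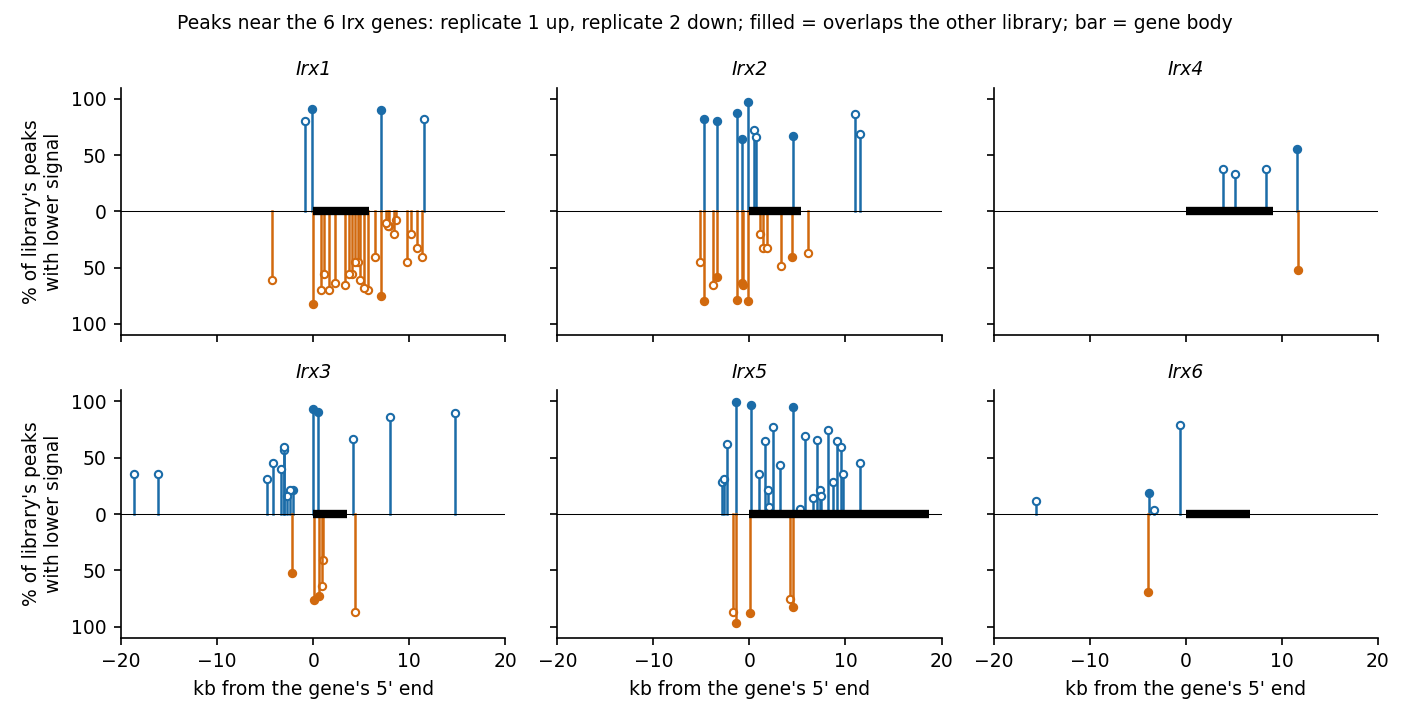
Peaks within 20 kb of the 5′ end of each Irx gene (horizontal axis, kb in the direction of transcription), replicate 1 upwards and replicate 2 downwards, by the percentage of that library's peaks with a lower signal. Filled points overlap a peak of the other library and the black bar is the gene body; Irx1 carries a row of replicate 2 peaks, Irx5 a row of replicate 1 peaks, and Irx4 and Irx6 have few.

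The other members had shorter rows. Within 20 kb of the 5′ end of Irx2 there were 10 peaks of replicate 1, 6 of them shared, and 14 of replicate 2, 7 of them shared. Irx2 was the gene with the most shared peaks close by, and 6 replicated regions stood within 9.39 kb around its start. Around Irx3 there were 15 peaks of replicate 1 and 6 of replicate 2, and 3 of each were shared. Irx3 had 1 peak of replicate 1 and 4 of replicate 2 in its short body.

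Over the whole windows, the Irx3-Irx5-Irx6 cluster leaned to replicate 1, and the Irx1-Irx2-Irx4 cluster leaned slightly the other way. The Irx1-Irx2-Irx4 window (chr13:71857921-73369608) held 140 peaks of replicate 1 and 99 of replicate 2, or 1.41 replicate 1 peaks for each replicate 2 peak (exact 95% interval 1.09 to 1.85, counting error only). The Irx3-Irx5-Irx6 window (chr8:91698525-92780956) held 150 and 33, a ratio of 4.55 (3.10 to 6.84). The genome ratio was 1.86. Relative to it, the first window stood at 0.760 (0.583 to 0.993) and the second at 2.44 (1.67 to 3.68). The first interval included 1 in 5 of 6 alternatives tried, for example 0.829 (0.623 to 1.11) with hotspots, so replicate 2 was not clearly favoured there as a whole. Among windows of the same length tiled along the genome with at least 20 peaks, 14.3% had a smaller replicate 1 share than the first, and 7.89% had a larger one than the second. In the stronger 50% of each list the second window's relative ratio was 1.31 (0.811 to 2.18), an interval that includes 1.

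**Figure D3:**
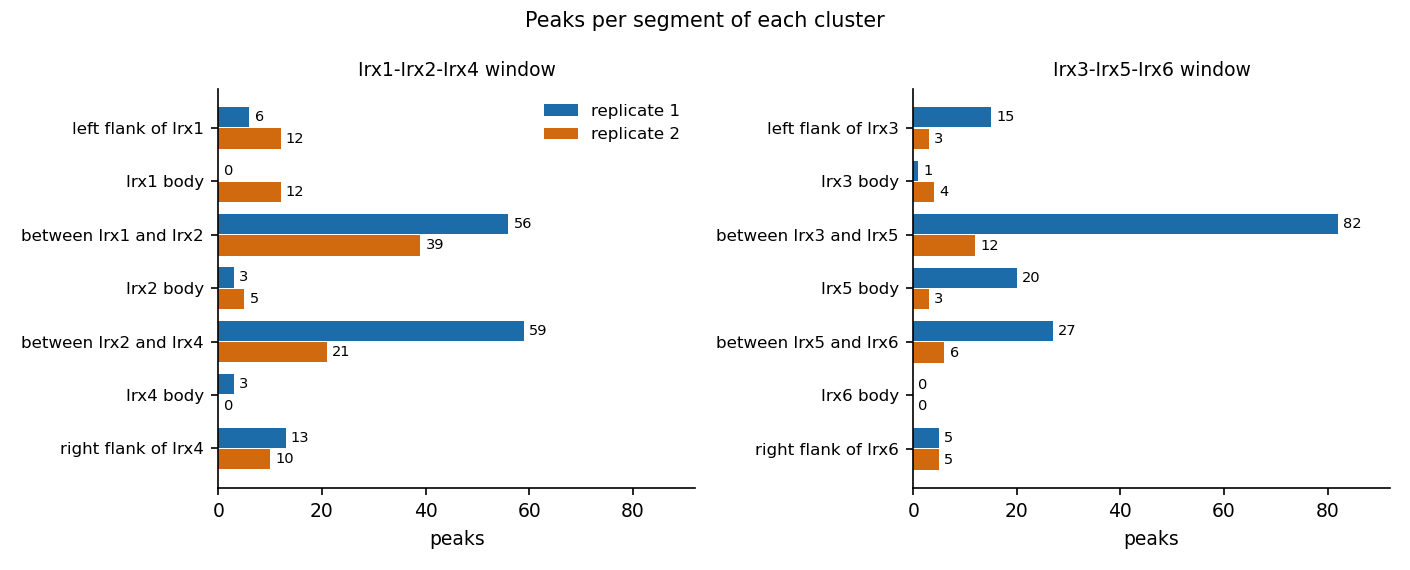
Number of peaks (horizontal axis) in each gene body, interval between genes and flank, from left to right along the chromosome from top to bottom, for replicate 1 and replicate 2. Replicate 1 exceeds replicate 2 most between Irx3 and Irx5, with 82 and 12. Replicate 2 exceeds replicate 1 in the left flank and the body of Irx1 and in the bodies of Irx2 and Irx3.

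By interval, the excess of replicate 1 was largest between Irx3 and Irx5 (82 and 12 peaks) and stood at 20 and 3 in the Irx5 body and 27 and 6 between Irx5 and Irx6. In the Irx3 body replicate 2 led, with 4 peaks against 1 of replicate 1. The right flank of Irx6 had 5 of each. In the chromosome 13 cluster, replicate 2 led in the left flank and body of Irx1 (6 and 12, then 0 and 12 peaks of replicates 1 and 2) and in the Irx2 body (3 and 5), and replicate 1 led between Irx2 and Irx4 (59 and 21). The tilt of each window was therefore not even along its length.

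The share of peaks also found in the other library was lower than in the genome for both libraries in both windows, and 2 of these 4 intervals lay below the genome's share. The intervals cover counting error only. In the Irx3-Irx5-Irx6 window replicate 2 shared 17 of the 150 replicate 1 peaks, or 11.3% (95% Wilson interval 7.20 to 17.4), against 33.5% in the genome. In the other window the share was 42 of 140, 30% (23.0 to 38.04). Of replicate 2 peaks, 47 of 99 were shared in the Irx1-Irx2-Irx4 window, 47.5% (37.9 to 57.2), against 64.6% in the genome. In the Irx3-Irx5-Irx6 window 17 of 33 were, 51.5% (35.2 to 67.5). A low replicate 2 share was not particular to these windows. The replicate 2 share was also below the genome's at each Hox cluster and at Otx2, En1 and En2. It ran from 22.0% (Otx2) to 62.1% (Hoxb). The replicate 1 share there ran from 20.6% (Hoxc) to 47.6% (En1) and passed the genome's at Hoxd, En1 and En2. The 11.3% of the Irx3-Irx5-Irx6 window was lower than each of these, although the Hoxc interval (10.3 to 36.8) included it. The gap on chromosome 13 was also there among strong peaks: in the stronger 50% of both lists, 20 of 42 replicate 2 peaks were shared, or 47.6%, against 83.99% in the genome, and 19 of 68 replicate 1 peaks, or 27.9%, against 44.7%.

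Markers of the midbrain and of tissue beside it also differed between the libraries. Their part in these results was not tested. Among 8 Hox genes taken as markers of hindbrain and trunk, 6 had a promoter peak in replicate 1 and 1 in replicate 2, beside 68.9% and 62.6% of all protein-coding genes. Their signals were 65 to 96 in replicate 1, and the 1 in replicate 2, Hoxa7, had 44. Hoxa3 and Hoxb9 had none in either. Over the 4 Hox clusters together, peaks did not lean to replicate 1: there were 162 in replicate 1 and 96 in replicate 2, a ratio of 1.69, or 0.907 times the genome's 1.86. The single clusters ran from 0.558 times the genome's ratio (Hoxd) to 1.22 times (Hoxa). Over the loci of Otx2, En1 and En2, which define midbrain and isthmus, there were 73 and 85, or 0.461 times the genome's ratio. Of 8 forebrain markers, 5 and 4 had a promoter peak in replicates 1 and 2, and 2 had a replicated one. Of the 8 Hox genes, 1 had a replicated one, Hoxa7. A replicated promoter peak was found for 8 of 8 pan-neuronal, 6 of 9 midbrain and isthmus, 4 of 6 oligodendrocyte lineage, 4 of 6 astrocyte and 3 of 8 vessel markers. It was found for 0 of 8 microglial and 0 of 6 erythroid markers, beside 61% of all protein-coding genes. The microglial markers also split by library, with a promoter peak for 4 of 8 in replicate 1 and 0 in replicate 2. Midbrain and isthmus markers leaned the same way, with 8 of 9 in replicate 1 and 6 in replicate 2. Vessel markers (6 and 4), oligodendrocyte lineage markers (5 and 4) and astrocyte markers (6 and 5) did too. All protein-coding genes also leaned this way, at 68.9% and 62.6%. Differences of so few genes were not tested. Pan-neuronal markers had 8 in each, and erythroid markers had 0 and 1.

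**Figure D4:**
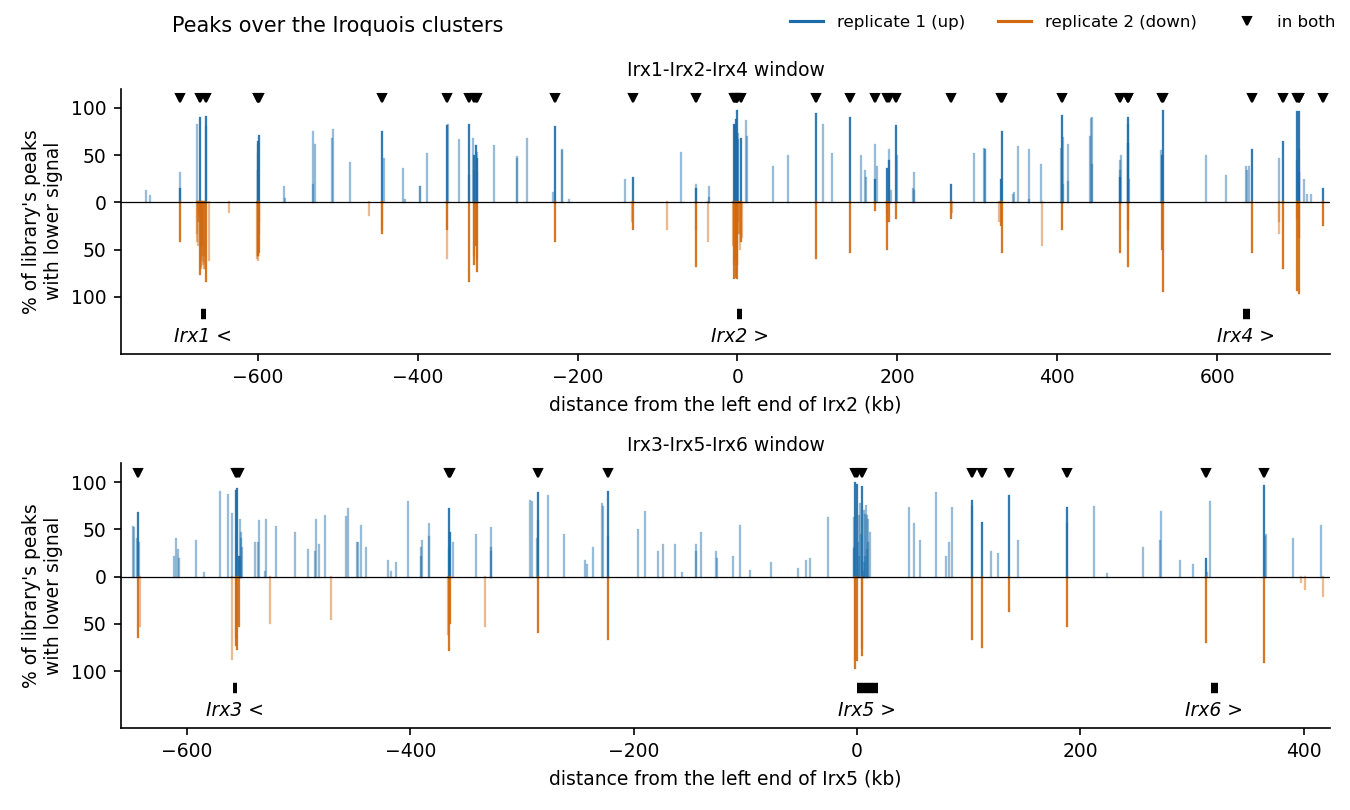
Peaks along both clusters (horizontal axis, kb from the left end of Irx2 or Irx5), replicate 1 upwards and replicate 2 downwards, by the percentage of that library's peaks with a lower signal; triangles mark replicated regions, and black blocks the genes with their direction. Replicated regions are spread over the long intervals of the Irx1-Irx2-Irx4 window (42 regions) and sparser in the Irx3-Irx5-Irx6 window (17 regions).

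The genes of each cluster stand far apart, with the first gene pointing away from the other two: 665 kb lie between Irx1 and Irx2, 626 kb between Irx2 and Irx4, 556 kb between Irx3 and Irx5 and 298 kb between Irx5 and Irx6. The Irx1-Irx2-Irx4 window held 42 replicated regions, 34 distal, or 2.78 per 100 kb (exact Poisson 95% interval 2.00 to 3.76). The Irx3-Irx5-Irx6 window held 17, 12 distal, or 1.57 (0.915 to 2.51). The genome had 2.75 per 100 kb. Of the merged regions, 22.2% and 10.9% were replicated in these windows, against 28.7% in the genome. The ratio of the first density to the second was 1.77 (0.986 to 3.31), an interval that includes 1. For distal regions alone it was 2.03 (1.02 to 4.30), an interval that does not. The ratio rested on which library was counted: replicate 2 peaks alone gave 2.15 (1.44 to 3.29) and replicate 1 peaks alone 0.668 (0.527 to 0.847), so the libraries ordered the clusters in opposite ways.

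Few genes lie in these windows, and both ranked higher when windows with more protein-coding genes were left out. Among all windows of the same length, 56.5% held fewer replicated regions than the chromosome 13 window and 36.1% fewer than the chromosome 8 window. Among windows with at most as many starts of protein-coding genes (5 and 3), which includes windows with fewer genes still, the values were 90.5% and 71.7%. For comparison, the 4 Hox clusters, which are compact, had 3.48 replicated regions per 100 kb, and the Otx2, En1 and En2 loci 4.46. These differences were not tested.

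Long stretches had no replicated region: 154 kb between Irx1 and Irx2 and 222 kb of the interval that ends at Crnde, next to Irx5. Groups of at least 3 replicated regions at most 5 kb apart stood at Irx2, Irx3 and Irx5, at 64.8 kb from Irx1, and deep between Irx1 and Irx2, 326 kb from Irx2. A sixth group stood beyond Irx4, at the promoters of Ndufs6, a subunit of respiratory complex I, and Mrpl36, a mitochondrial ribosomal protein. One region, with 112 and 53 in replicates 1 and 2, lay at annotated starts of both genes, and another, with 114 and 62, at a start of Mrpl36. These definitions were chosen after the regions had been seen.

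Noncoding genes made up the other replicated promoters. Crnde, a long noncoding RNA gene that starts beside Irx5 on the other strand, had the strongest, with 136 in replicate 1 (99.1% lower) and 67 in replicate 2 (97.0% lower), above Irx5 itself in both libraries. Gm40999, which starts just past the 3′ end of Irx1, had 92 and 30. A region at Gm20554, beside Irx2, had 55 and 24. Gm47902 had 91 and 19, D730050B12Rik 37 and 18, and Gm36670 62 and 32. Apart from those of D730050B12Rik, all of these promoter signals lay above the median peak of their library.

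Distal regions are where enhancers are usually found, and their median signal differed between the clusters. Over the 34 on chromosome 13 it was 53.5 in replicate 1 and 18.5 in replicate 2, below the genome's 67 and 22 over 52518 distal replicated regions. Over the 12 on chromosome 8 it was 68.5 and 23.5, close to the genome's. These differences were not tested. Their median G and C content was 49.96%, against 50% in the genome. The 5 strongest of each cluster were taken by the mean of their 2 percentages. Those below are shown because they are the strongest shared distal sites of the clusters or hold the words discussed next. Capitals mark matches, on either strand, and over the whole region, to any of the 13 motifs searched: CTCF core (the word AGAGGGC or its forms written AGATGGC and also AGGGGGC and lastly AGGTGGC), Irx (ACANNTGT), Meis (TGACAG), Otx (TAATCC), homeodomain (TAATTA), Sox (ACAATG or ACAAAG), E-boxes CAGCTG and CAGATG, NFI half-site (TTGGCA), TCF/LEF (ATCAAAG), Gli (TGGGTGGTC), SP/KLF (GGGCGG) and NRF1 (GCGCATGCG). All are on the plus strand of mm10.
100 kb before Irx4, chr13:73160456-73160605, signals 120 and 55: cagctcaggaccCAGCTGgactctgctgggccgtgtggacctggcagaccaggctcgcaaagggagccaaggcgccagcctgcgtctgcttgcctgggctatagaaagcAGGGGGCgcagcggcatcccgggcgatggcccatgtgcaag
just before Irx2, chr13:72627416-72627585, signals 87 and 33: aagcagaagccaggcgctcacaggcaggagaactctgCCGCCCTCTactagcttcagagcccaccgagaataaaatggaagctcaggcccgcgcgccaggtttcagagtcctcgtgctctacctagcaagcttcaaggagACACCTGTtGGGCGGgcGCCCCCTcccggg
46.9 kb past the start of Irx6, chr8:92721676-92721825, signals 115 and 49: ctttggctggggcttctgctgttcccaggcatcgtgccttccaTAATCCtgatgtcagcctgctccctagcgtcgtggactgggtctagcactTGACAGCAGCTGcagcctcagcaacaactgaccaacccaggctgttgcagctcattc
intron of Irx5, chr8:92362096-92362265, signals 111 and 37: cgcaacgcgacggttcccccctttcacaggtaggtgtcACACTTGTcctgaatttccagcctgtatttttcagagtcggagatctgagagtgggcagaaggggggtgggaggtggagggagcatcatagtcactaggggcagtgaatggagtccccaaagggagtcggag
270 kb from Irx3 towards Irx5, chr8:92071796-92071965, signals 88 and 21: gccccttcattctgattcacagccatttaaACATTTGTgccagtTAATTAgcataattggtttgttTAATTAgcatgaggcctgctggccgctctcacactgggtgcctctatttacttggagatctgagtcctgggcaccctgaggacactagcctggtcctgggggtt

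The region before Irx4 was the strongest distal one of its cluster in both libraries (96.8% and 93.2% of peaks lower), although the Irx4 promoter 100 kb away was closed. The region past Irx6 was likewise the strongest of the other cluster (96.0% and 90.6% lower), 46.9 kb from an Irx6 start without a peak. The region before Irx2 lay in an exon of Gm20554. Both it and the Irx5 intron held the Irx word ACANNTGT, as ACACCTGT and ACACTTGT. The region 270 kb from Irx3 held it as ACATTTGT, with TAATTA at 2 places nearby.

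Of the other regions named by the same rule, chr13:72292576-72292725 between Irx1 and Irx2 had 77 and 37, chr13:72623996-72624185 before Irx2 had 76 and 34, and chr13:73117476-73117665 before Irx4 had 91 and 25. On chromosome 8, chr8:92134176-92134345 between Irx3 and Irx5 had 92 and 24, and chr8:92460256-92460645 between Irx5 and Irx6 had 74 and 24. The strongest distal peaks of 1 library alone were of like size to these in replicate 1: 92 at chr13:73071956-73072105 and 91 at chr8:91787216-91787365, which lies 14.6 kb past the start of Irx3. In replicate 2 they had 26, in an Irx1 exon, and 43, at chr8:91797656-91797805 next to the 3′ end of Irx3. A replicate 1 hotspot covered the latter region, and a replicate 1 peak with 57 lay beside it without overlap.

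**Figure D5:**
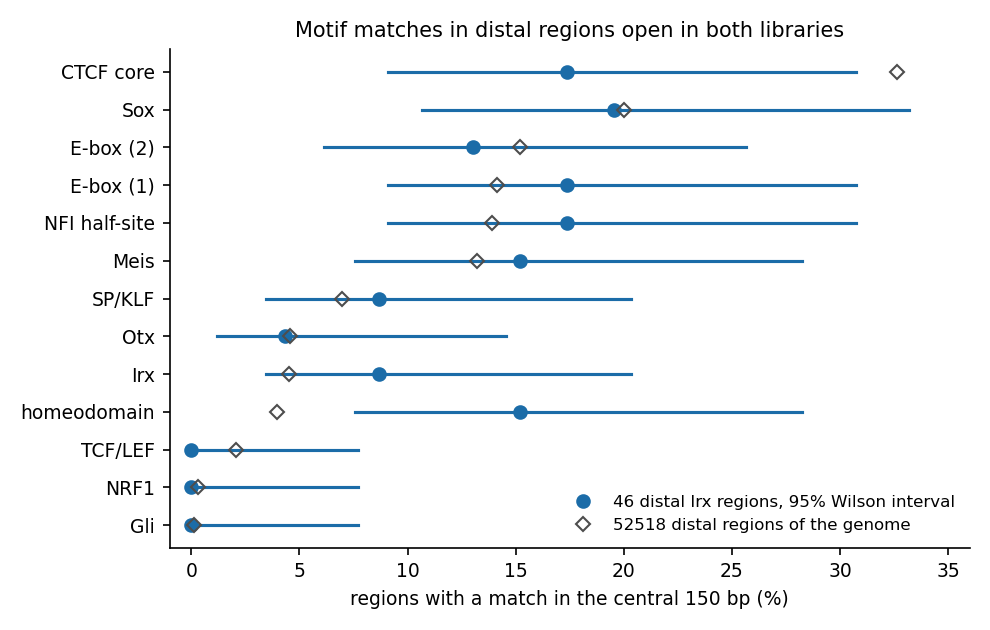
Share of distal replicated regions with a match to each motif in the central 150 bp (horizontal axis, percent): filled points with 95% Wilson intervals for the 46 regions of the Iroquois clusters, open diamonds for all 52518 of the genome. E-box (1) is CAGCTG and E-box (2) is CAGATG; the homeodomain word lies above the genome's share, the CTCF core below it, and the other intervals include it.

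Each motif was counted in the central 150 bp of the 46 distal regions. The homeodomain word TAATTA, bound by many homeodomain factors, was in 7, or 15.2% (95% Wilson interval 7.57 to 28.2), against 3.98% of the distal replicated regions of the genome. Of the 7, 5 lay in the Irx1-Irx2-Irx4 window and 2 in the other. The core word of the CTCF site, the main anchor of chromatin loops, was in 8, or 17.4% (9.09 to 30.7), against 32.6%. All 8 were in the Irx1-Irx2-Irx4 window, and 0 of the 12 distal regions of the Irx3-Irx5-Irx6 window held it (upper Wilson limit 24.2%). The Irx word was in 4, or 8.70% (3.43 to 20.3), against 4.51%. The Sox words were in 9, or 19.6%, against 20.02%, the Meis word in 7, 15.2% against 13.2%, and the Otx word in 2, 4.35% against 4.55%. CAGCTG was in 17.4% against 14.1%, CAGATG in 13.04% against 15.2%, TTGGCA in 17.4% against 13.9% and GGGCGG in 8.70% against 6.97%. TCF/LEF, Gli and NRF1 words were in 0 of 46, against 2.07%, 0.107% and 0.293%.

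The intervals hold for each motif alone and are not adjusted for the 13 searched, and the regions of a cluster are not independent. The homeodomain share stayed between 15% and 21.2% when the overlap or the list length was changed, against 3.06% to 3.77% in the genome. The CTCF share was lower than the genome's in each of these settings too (18.8% to 30% against 35.3% to 40.9%), but in 2 of the 3 its interval included the genome's share. A match says only that the letters are there.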

How the data were processed

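The authors deposited, for each library, a list of peaks with a signal per peak and a list of hotspots with the −log10 of a q value (100 stands for the strongest class). Per the deposited text beside the lists, each came from the filtered alignment of 1 replicate, so replicates were not pooled. The hotspot lists also hold a display score, deposited by the authors, which was not used. Neither labels nor files name the aligner, the caller, their versions or the read depth. Intervals on the mitochondrial genome or unplaced sequences (215 and 221 peaks) and repeated positions (22 and 24) were set aside. Peaks were merged and counted with Python 3.11.15, numpy 2.4.6, scipy 1.17.1 and pysam 0.24.0. The steps were tested on simulated intervals. Overlap meant at least 1 bp. Windows took regions by midpoint. A promoter was called when a replicated region overlapped 500 bp around any TSS. Reference sequence is C57BL/6J (GRCm38, mm10), not the B6NCrl of the samples. A single group allows no contrast, so no p-value was computed. Named regions were the 5 distal replicated ones per window with the best mean rank and the strongest distal peak of 1 library alone. The members, lists and motifs were chosen with earlier results of these data known. Region groups, gaps, gene-poor windows, library ratios and rows over gene bodies were chosen after the regions had been seen. Of the TALE homeobox genes listed for comparison, 1 is not reported here.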

Additional observations from a re-analysis of the deposited data

How the results depend on the processing

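The same 4 Irx genes had a replicated promoter peak under all 9 alternatives tried: reciprocal overlap, shortened lists, hotspots, each library alone and other promoter windows. For each library alone, a peak of that library was enough. The background then ran from 55.4% to 68.9%. In replicate 1 alone, Irx6 did have a promoter hotspot, and a peak 577 bp from a TSS, which the 1000 bp window takes in. Replicate 2 matched neither. Replicated regions in the Irx1-Irx2-Irx4 window fell to 19 in the stronger 50% of each list, or 1.26 per 100 kb against 1.85 in the genome. With 1 library left out, the merged regions of the other were merely counted. They ran from 94 to 138 in that window and from 29 to 144 in the Irx3-Irx5-Irx6 window. The ratio of the densities of the 2 windows was then 0.686 to 2.32, reversed without replicate 2 (0.686), and it was 1.05 in the stronger 50%. These ratio settings, and the following, were chosen after the data had been seen. With both lists at the length of the shorter, shares of shared peaks on chromosome 13 were 38.2% of replicate 1 (genome 53.4%) and 32.3% of replicate 2 (55.4%), and on chromosome 8 22.7% of replicate 1. The last was 21.3% in the stronger 50% (genome 44.7%). With hotspots, 67.7% of replicate 2 on chromosome 8 were shared (genome 72.0%). The ratio of replicate 1 to replicate 2 on chromosome 8 kept its direction in all 6 alternatives, from 1.31 to 2.81 times the genome's. That on chromosome 13 kept its direction too, from 0.739 to 0.870, with 5 of 6 intervals including 1. No paired analysis was possible because there is 1 group. Depth is unknown, so an absent peak may be a site below detection.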
